A study of Homo sapiens with 15 samples.

Results

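BB2-125 and BB2-162 are 2 compounds known by code names that were given to hypoxic cultures of A549, an established line of human lung adenocarcinoma cells, and the effects they had in common are described here. The data were 6 of the 15 arrays of the series, 3 with each compound, set against 6 reference arrays, 3 with vehicle and 3 with a further compound, BB2-282, all hypoxic. All cultures contained 0.1% DMSO. In the compound groups BB2-125, BB2-162 or BB2-282 was present at 10 µM. Treatment began 6 h before the cells were sealed in a gas pouch, where they stayed for 42 h. The last 3 arrays came from normoxic cells with vehicle, and no array of the series came from normoxic cells with a compound. The design text calls all of the compounds inhibitors of transcription, so BB2-282 is a treated reference and not an untreated control. A549 is a single tumour line, so the values speak of these cells. The title places the series in signalling by hypoxia-inducible factor (HIF), and the question taken here is which transcripts moved with both BB2-125 and BB2-162 relative to both references.

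HIF is a pair of proteins, an oxygen-regulated alpha subunit, encoded by HIF1A or EPAS1, and the constant partner ARNT. In normal oxygen, prolyl hydroxylases such as the product of EGLN3 mark the alpha subunit for destruction. In low oxygen the pair binds promoters that carry a short core motif and recruits the coactivators p300 and CBP, encoded by EP300 and CREBBP, and CITED2 competes for the same surface of these coactivators. Targets in epithelial tumour cells include the angiogenic factor gene VEGFA, the collagen cross-linking enzyme gene LOX, the glucose transporter gene SLC2A1 and the chemokine receptor gene CXCR4.

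Each gene had 1 value per array, the log2 of a deposited microarray signal, and a level below is such a log2 signal. A change is the mean of the BB2-125 and BB2-162 means minus the mean of the hypoxic vehicle and BB2-282 means, so that each group has equal weight and 1 unit is a doubling. The number after ± is the standard error of a change from limma, with 3 arrays in each group. A gene was called at a Benjamini-Hochberg adjusted p under 0.05 over all 16005 genes tested. It is termed common where it was called and both compound means lay above, or both below, both reference means. It is termed strictly common where each of the 4 comparisons of 1 compound with 1 reference passed as well, which was judged by the largest of the 4 p-values. The labels call the arrays of a group biological replicates and say no more, so a p-value here speaks only of the scatter among those cultures, which may be technical.

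With both compounds the receptor genes EGFR and MET, several integrin genes and the lysyl oxidase gene LOX were lower than in either reference, and most heat shock and histone genes and some immediate-early genes, such as NR4A1, were higher. The pooled change was called for 6656 genes (41.6% of those tested), 3165 higher (19.8%) and 3491 lower (21.8%). The rule on the means alone was met by 4474 genes as higher (28%) and by 3542 as lower (22.1%). Both conditions together left 5438 common genes (34%), of which 2510 were higher (15.7%) and 2928 lower (18.3%). The strict rule left 1288 genes (8.05%), 362 higher (2.26%) and 926 lower (5.79%). A change of at least 1 was reached by 124 common rises (0.775%) and 358 common falls (2.24%). The 6 compound and 6 reference arrays did not overlap for 849 common rises (5.3%) and 1548 common falls (9.67%).

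The median change was 0.05 over all genes tested, 0.37 over the common rises and -0.51 over the common falls. From the 5th to the 95th percentile the common rises ran from 0.20 to 0.998 and the common falls from -1.30 to -0.23. At the edge of the call, ASCL5 and NPR1 were just inside on the higher side with changes of 0.22 and 0.25 at an adjusted p of 0.0499, and FBLL1, at 0.20 and 0.0502, was just outside. On the lower side GRIP1 and TLR2 were just inside, at -0.27 and -0.19 with an adjusted p of 0.0497, and ZNF841, at -0.40 and 0.0502, was just outside. Median centring of the arrays moved the split of the common genes to 1871 higher and 3231 lower.

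**Figure D1:**
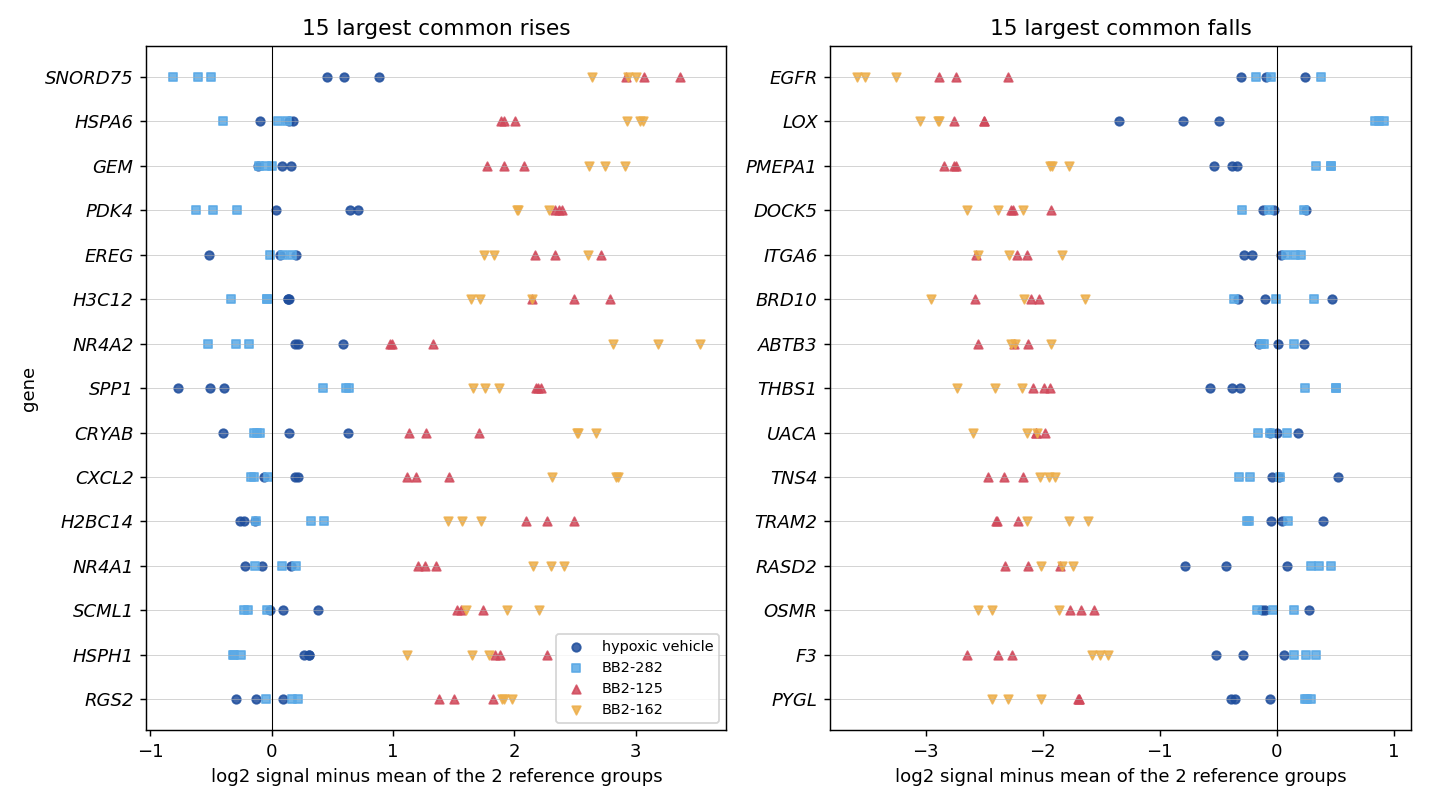
Log2 signal of each array minus the mean of the hypoxic vehicle and BB2-282 group means (horizontal axis) for the 15 largest common rises and the 15 largest common falls (vertical axis) whose compound and reference arrays did not overlap; each point is 1 array, 3 in each of the 4 hypoxic groups. The compound arrays of each gene lie to one side of its reference arrays, with changes from 1.75 for RGS2 to 2.99 for SNORD75 among the rises and from -3.05 for EGFR to -1.97 for PYGL among the falls.

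The 15 largest common rises with no overlap had changes from 1.75 to 2.99 with adjusted p from 6.88e-13 to 5.36e-09, and the 15 largest falls had changes from -3.05 to -1.97 with adjusted p from 7.06e-13 to 7.42e-08. All 30 genes were strictly common. They were selected for their size in the contrast described, so their ranks and values are descriptive. BB2-162 replicate 1 stood farther from its group mean than any other array did from its own, with a root mean square deviation of 0.221 against 0.094 to 0.163. Without that array EGFR changed by -3.10 ± 0.13, LOX by -2.74 ± 0.12, HSPA6 by 2.47 ± 0.11 and NR4A2 by 2.05 ± 0.11.

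Most heat shock genes were higher with both compounds. They encode chaperones that hold or refold damaged proteins, and several are switched on through the factor encoded by HSF1. Of 20 tested, 13 were common rises and 1 a common fall, against 15.7% and 18.3% of all genes tested, and 9 of the rises were strictly common. The median change of the list was 0.59, against 0.05 for all genes. The single fall was HSF1 itself, at -0.48, named after its value was seen.

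HSPA6 encodes an inducible member of the HSP70 family that is nearly silent in unstressed cells. HSPA6 was measured at 5.98, 5.74 and 6.01 in the vehicle arrays, 5.89, 5.43 and 5.96 with BB2-282, 7.75, 7.72 and 7.84 with BB2-125 and 8.87, 8.77 and 8.89 with BB2-162. All 6 compound arrays lay above all 6 reference arrays, and the reference arrays lay at about the normoxic level (5.91, 5.41 and 6.05). The change was 2.47 ± 0.11, or 5.55-fold (adjusted p = 8.75e-12). HSPA6 has a near-identical copy, the pseudogene HSPA7, and the array may not part their transcripts. The promoter of HSPA6 is printed because the gene had the largest common rise among genes in the promoter table, which does not hold SNORD75. These are the 250 bases before its start in RefSeq, at chr1:161524290-161524539 of GRCh38.p14, on the plus strand. Capitals mark the letters GAANNTTC, an inverted pair of the units that make up heat shock elements, 180 and 69 bases before the start, and TGANTCA, the core of an AP-1 site, 244 and 139 bases before it.
HSPA6: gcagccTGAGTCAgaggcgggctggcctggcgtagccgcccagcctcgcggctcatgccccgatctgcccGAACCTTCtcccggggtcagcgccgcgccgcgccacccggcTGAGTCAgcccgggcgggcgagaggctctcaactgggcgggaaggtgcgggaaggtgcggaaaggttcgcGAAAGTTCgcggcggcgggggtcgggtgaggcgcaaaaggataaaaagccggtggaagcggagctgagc

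HSPH1 encodes an HSP110 chaperone and nucleotide exchange factor. In hypoxia HSPH1 stood at 7.97, 7.93 and 7.97 in the vehicle arrays, 7.35, 7.34 and 7.41 with BB2-282, 9.50, 9.93 and 9.54 with BB2-125 and 9.31, 8.77 and 9.45 with BB2-162. The BB2-282 arrays were the lowest, the vehicle arrays came next, and no compound array reached down to either. The change of HSPH1 was 1.76 ± 0.10. CRYAB encodes the small heat shock protein alpha-B crystallin. The 12 hypoxic arrays gave CRYAB levels of 7.80, 8.29 and 7.26 in the vehicle arrays, 7.56, 7.52 and 7.54 with BB2-282, 9.37, 8.79 and 8.94 with BB2-125 and 10.34, 10.18 and 10.18 with BB2-162. The vehicle arrays of CRYAB spread more widely than the BB2-282 arrays, and the lowest compound array still lay above the highest reference array (change 1.97 ± 0.15). DNAJB1, an HSP40 co-chaperone gene, changed by 1.25 ± 0.09, and HSPB8, which encodes a small heat shock protein, by 1.10 ± 0.07.

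Immediate-early genes encode transcription factors that cells switch on within minutes of a signal. Of 18 tested, 8 were common rises and 2 common falls, and 5 of the rises were strictly common (15.7% and 18.3% of all genes tested were common rises and falls). As a group they had a median of 0.36. Against the vehicle alone the median was 0.38 for BB2-125 and 0.76 for BB2-162, and against BB2-282 alone 0.006 and 0.55. The falls were FOSL2 (-0.62) and KLF4 (-0.37), named after their values were seen. NR4A2, which encodes an orphan nuclear receptor, had the following values. The hypoxic levels of NR4A2 were 8.21, 8.61 and 8.24 in the vehicle arrays, 7.84, 7.73 and 7.50 with BB2-282, 8.99, 9.35 and 9.01 with BB2-125 and 11.55, 10.83 and 11.20 with BB2-162. The BB2-162 arrays were the highest, the BB2-125 arrays lay between them and the vehicle, and the BB2-282 arrays were the lowest. Its change was 2.14 ± 0.12. NR4A1, of the same family, measured 9.04, 8.90 and 9.28 in the vehicle arrays, 9.32, 9.21 and 8.99 with BB2-282, 10.48, 10.39 and 10.33 with BB2-125 and 11.42, 11.27 and 11.53 with BB2-162. Both compounds lay above both references without overlap, BB2-162 by more (change 1.78 ± 0.09). FOS changed by 1.48 ± 0.12 and FOSB by 1.31 ± 0.12.

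Other signalling genes among the largest rises were GEM, EREG, CXCL2 and RGS2. GEM encodes a small GTP-binding protein that inhibits calcium channels. GEM was measured at 7.75, 7.48 and 7.68 in the vehicle arrays, 7.60, 7.55 and 7.49 with BB2-282, 9.36, 9.67 and 9.51 with BB2-125 and 10.50, 10.21 and 10.34 with BB2-162. The reference arrays of GEM kept within a narrow band, and all compound arrays were well above it (change 2.34 ± 0.08). EREG encodes epiregulin, a ligand of the EGF receptor. In hypoxia EREG stood at 8.11, 8.24 and 7.52 in the vehicle arrays, 8.03, 8.21 and 8.13 with BB2-282, 10.21, 10.76 and 10.38 with BB2-125 and 10.64, 9.79 and 9.87 with BB2-162. Its compound arrays lay above all reference arrays and above the normoxic arrays (8.62, 8.47 and 8.46), with a change of 2.23 ± 0.14. Of 5 EGF receptor ligand genes tested, TGFA, which encodes another ligand, was a common fall (-1.59 ± 0.08). NRG1 was a common rise at 0.28 ± 0.07, whose sign depended on the probe set: averaged over its probe sets it changed by -0.35 (adjusted p = 0.00145).

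CXCL2 encodes a chemokine that attracts neutrophils. The 12 hypoxic arrays gave CXCL2 levels of 7.64, 7.38 and 7.66 in the vehicle arrays, 7.30, 7.42 and 7.27 with BB2-282, 8.91, 8.63 and 8.56 with BB2-125 and 9.75, 10.29 and 10.30 with BB2-162. Both compounds lay above the references, BB2-162 by more (change 1.96 ± 0.10). Of 23 genes of NF-kB and the neutrophil chemokines, 6 were common rises, among them CXCL1 (1.10 ± 0.09), CXCL5 (0.76 ± 0.06) and the NF-kB inhibitor gene NFKBIA (0.67 ± 0.06), and 4 were common falls, beside 15.7% and 18.3% of all genes. The falls held the NF-kB subunit genes RELA (-0.61), RELB (-0.68) and NFKB2 (-0.56) and the cytokine gene IL1A (-0.85), named after their values were seen. RGS2, a regulator of G protein signalling, measured 5.86, 6.25 and 6.03 in the vehicle arrays, 6.32, 6.37 and 6.11 with BB2-282, 7.98, 7.66 and 7.53 with BB2-125 and 8.13, 8.07 and 8.05 with BB2-162, a change of 1.75 ± 0.09 without overlap.

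Of 13 genes listed under feedback of MAP kinase signalling, 6 were common rises and 2 common falls, beside 15.7% and 18.3% of all genes. The list is mixed and not all of its members encode inhibitors: ETV5 and IER3 were among the rises. The rises included DUSP5 (0.65 ± 0.08), which encodes a phosphatase of ERK, and SPRY1 (0.59 ± 0.07), a Sprouty gene. The falls were SPRED1 (-1.23 ± 0.07) and SPRED2 (-1.11 ± 0.10), whose products inhibit the step from Ras to Raf. All 4 of these genes were strictly common.

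Most replication-dependent histone genes were higher with both compounds. They supply the core and linker histones during S phase and lie in clusters of very similar copies, so the array may not part single members. Of 34 tested, 23 were common rises and 1, H4C8 (-1.03, named after its value was seen), a common fall, against 15.7% and 18.3% of all genes; 9 of the rises were strictly common. Over the list the median was 0.58. H3C12 had the following values. The hypoxic levels of H3C12 were 6.01, 6.001 and 6.000 in the vehicle arrays, 5.83, 5.83 and 5.53 with BB2-282, 8.65, 8.01 and 8.36 with BB2-125 and 7.51, 8.01 and 7.58 with BB2-162. The 6 reference arrays lay between 5.53 and 6.01, the 6 compound arrays ran from 7.51 to 8.65, and the normoxic arrays were higher still (10.11, 9.97 and 9.87). Its change was 2.15 ± 0.11. H2BC14 measured 7.40, 7.44 and 7.52 in the vehicle arrays, 8.10, 7.99 and 7.54 with BB2-282, 10.15, 9.76 and 9.93 with BB2-125 and 9.12, 9.39 and 9.23 with BB2-162, below the normoxic arrays (12.13, 11.88 and 12.03); its change was 1.93 ± 0.10.

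Genes of the replication machinery were listed apart from the histones. Of 30 tested, 7 were common rises and none a common fall, beside 15.7% and 18.3% of all genes, and only the clamp loader gene RFC3 (1.04 ± 0.11) was strictly common. PCNA, the sliding clamp gene, changed by 0.64 ± 0.08, but against the hypoxic vehicle alone by 0.13 (adjusted p = 0.322). Of 29 mitosis genes, 1 was a common rise and 2 were common falls, both below those shares. The median change of the mitosis list was 0.44 for BB2-125 against the vehicle and -0.46 for BB2-162 against it. That of the replication list was 0.42 for BB2-125 and -0.07 for BB2-162 against the vehicle. Against the other reference compound the replication medians were 0.52 and -0.08, so the median of this list did not rise with BB2-162.

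Proteasome subunit genes, whose products form the particle that degrades tagged proteins, were often higher. Of 26 tested, 15 were common rises and none a common fall, against 15.7% and 18.3% of all genes, and 4 of them were strictly common. The list had a median of 0.45. PSMB3 measured 10.38, 10.04 and 10.25 in the vehicle arrays, 9.83, 9.75 and 9.85 with BB2-282, 11.51, 11.40 and 11.41 with BB2-125 and 10.90, 11.06 and 10.75 with BB2-162, with no overlap between compounds and references (change 1.15 ± 0.08). PSMC4 changed by 1.20 ± 0.09. BB2-282 was part of the reference here: the median of BB2-162 against the vehicle was 0.12 and against BB2-282 it was 0.33.

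Splicing factor genes held 11 common rises and 2 common falls among 24 tested, with 7 rises strictly common. The list had a median of 0.14. SRSF2, SRSF1 and TRA2A, which encode splicing factors rich in arginine and serine, changed by 0.98 ± 0.07, 1.03 ± 0.07 and 1.29 ± 0.09, and HNRNPL, which encodes an RNA-binding protein of the hnRNP family, by 0.98 ± 0.08. Ribosome biogenesis genes held 12 common rises and 3 common falls among 26, with a median change of 0.19. RRS1 changed by 0.76 ± 0.08 and POLR1C, a subunit gene of RNA polymerases I and III, by 0.79 ± 0.06. The respective shares of all genes were 15.7% and 18.3%.

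SNORD75, PDK4, SPP1 and SCML1 complete the largest rises. SNORD75 is a small nucleolar RNA that lies within an intron of the noncoding host gene GAS5. SNORD75 was measured at 7.81, 7.38 and 7.52 in the vehicle arrays, 6.32, 6.42 and 6.11 with BB2-282, 10.29, 9.85 and 9.99 with BB2-125 and 9.93, 9.86 and 9.57 with BB2-162. The vehicle arrays lay near the normoxic level (7.47, 7.84 and 7.15), the BB2-282 arrays below it and all compound arrays far above it (change 2.99 ± 0.12, 7.93-fold). PDK4 encodes a kinase that switches off pyruvate dehydrogenase. In hypoxia PDK4 stood at 7.23, 7.17 and 6.56 in the vehicle arrays, 6.23, 6.04 and 5.90 with BB2-282, 8.91, 8.89 and 8.86 with BB2-125 and 8.81, 8.54 and 8.55 with BB2-162. All compound arrays were above the references and all were below the normoxic arrays (11.17, 11.40 and 11.30), with a change of 2.24 ± 0.10. SPP1, which encodes the secreted protein osteopontin, measured 8.15, 8.26 and 7.89 in the vehicle arrays, 9.29, 9.27 and 9.08 with BB2-282, 10.85, 10.83 and 10.88 with BB2-125 and 10.53, 10.41 and 10.31 with BB2-162. BB2-282 was itself above the vehicle for SPP1, by 1.12, and the compounds were above both (change 1.98 ± 0.08). SCML1, a gene of the Polycomb family, changed by 1.76 ± 0.10.

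The promoter of PDK4 is printed as that of a second large rise, outside the stress genes. These are the 250 bases before its start at chr7:95596517-95596766, minus strand. Capitals mark the CCAAT box, read on the opposite strand, 117 bases before the start.
PDK4: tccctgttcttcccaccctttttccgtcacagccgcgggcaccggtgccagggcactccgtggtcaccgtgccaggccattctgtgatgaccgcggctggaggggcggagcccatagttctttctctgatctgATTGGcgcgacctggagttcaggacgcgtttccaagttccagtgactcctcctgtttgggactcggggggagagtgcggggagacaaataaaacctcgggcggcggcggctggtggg

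**Figure D2:**
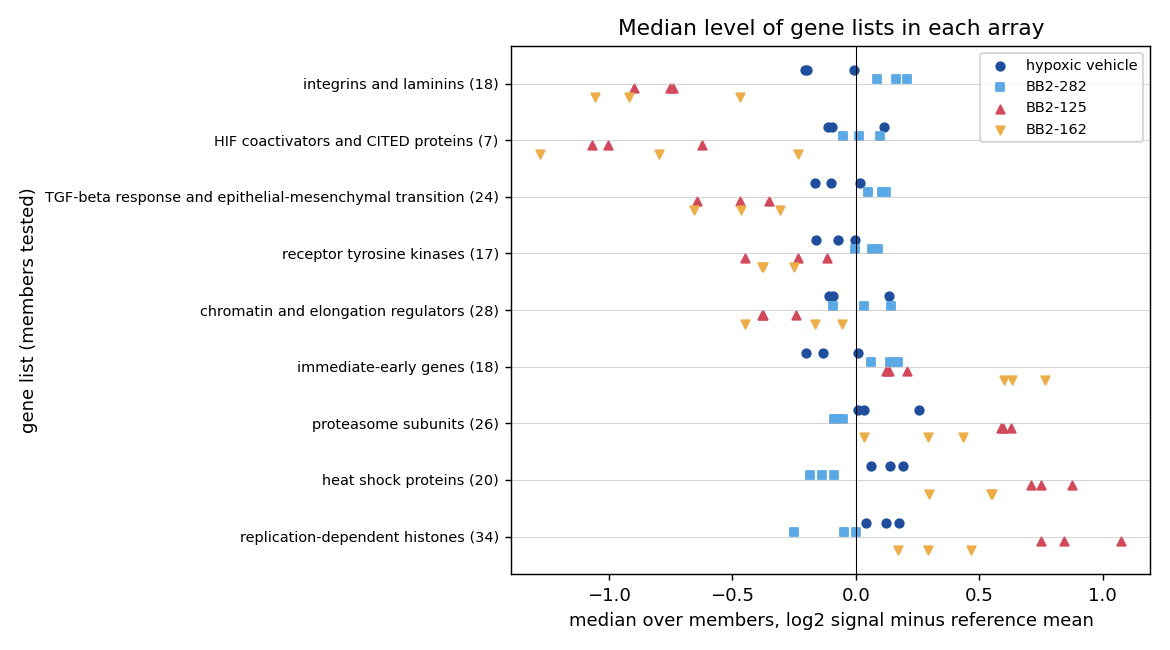
Median over the tested members of 9 gene lists of the log2 signal minus the mean of the 2 reference groups (horizontal axis), by list with the number of tested members (vertical axis); each point is 1 array of the 4 hypoxic groups. The heat shock list lay between 0.295 and 0.875 in the compound arrays and between -0.186 and 0.19 in the reference arrays, and the integrin and laminin list lay between -1.055 and -0.467 against -0.207 to 0.209. The histone, proteasome, immediate-early, chromatin and receptor kinase medians overlap between compound and reference arrays.

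Several receptor kinase genes were lower with both compounds. Of 17 tested, 9 were common falls and none was a common rise, against 18.3% and 15.7% of all genes, and 5 of the falls were strictly common. The median change was -0.30. EGFR encodes the receptor of epidermal growth factor, which drives growth in many lung adenocarcinomas. The 12 hypoxic arrays gave EGFR levels of 9.85, 10.40 and 10.06 in the vehicle arrays, 9.98, 10.11 and 10.53 with BB2-282, 7.27, 7.86 and 7.41 with BB2-125 and 6.90, 6.57 and 6.64 with BB2-162. The reference arrays lay between 9.85 and 10.53 and the compound arrays between 6.57 and 7.86, also below the normoxic arrays (8.36, 8.68 and 8.71). The change was -3.05 ± 0.12, or 8.27-fold lower (adjusted p = 5.74e-12). The promoter of EGFR is printed because the gene had the largest common fall. These are the 250 bases before its start at chr7:55018767-55019016, plus strand, and none of the 5 motifs searched was found in them.
EGFR: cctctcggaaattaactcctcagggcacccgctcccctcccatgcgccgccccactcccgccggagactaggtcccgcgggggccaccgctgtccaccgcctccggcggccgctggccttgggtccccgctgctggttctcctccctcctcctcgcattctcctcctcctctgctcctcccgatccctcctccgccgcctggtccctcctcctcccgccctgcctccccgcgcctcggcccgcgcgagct

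MET encodes the receptor of hepatocyte growth factor. The hypoxic levels of MET were 10.58, 11.15 and 10.52 in the vehicle arrays, 10.29, 10.38 and 10.57 with BB2-282, 8.71, 9.27 and 8.90 with BB2-125 and 9.63, 8.81 and 9.17 with BB2-162. Its compound arrays lay below all reference and normoxic arrays (9.96, 10.19 and 10.23), with a change of -1.50 ± 0.14. FGFR1, a fibroblast growth factor receptor gene, changed by -1.11 ± 0.08 and INSR, the insulin receptor gene, by -0.59 ± 0.07. OSMR, which encodes a receptor subunit for oncostatin M, measured 9.38, 9.78 and 9.41 in the vehicle arrays, 9.34, 9.48 and 9.65 with BB2-282, 7.84, 7.74 and 7.94 with BB2-125 and 7.65, 7.08 and 6.96 with BB2-162. All its compound arrays lay below all references and below normoxia (10.02, 10.48 and 10.27); the change was -1.97 ± 0.12. Of 12 genes of the IL6 family and its receptors, 3 were common falls, beside 18.3% of all genes, and all were strictly common, beside 5.79%. They were OSMR, LIFR (-1.10 ± 0.14), the receptor gene of leukaemia inhibitory factor, and IL6ST (-0.66 ± 0.09), which encodes the shared signalling chain.

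Most integrin and laminin genes were lower with both compounds. Integrins are the receptors that hold cells to the matrix, and laminins are the basement membrane proteins that some of them bind. Of 18 tested, 11 were common falls and none was a common rise (18.3% and 15.7% of all genes), and 9 were strictly common. Their median was -0.84. Against the vehicle alone it was -0.53 for BB2-125 and -0.55 for BB2-162, and against BB2-282 alone -0.98 and -0.89. ITGA6 encodes the alpha6 chain of laminin receptors. ITGA6 was measured at 8.15, 8.40 and 8.08 in the vehicle arrays, 8.52, 8.44 and 8.57 with BB2-282, 5.79, 6.14 and 6.23 with BB2-125 and 6.52, 5.81 and 6.08 with BB2-162. The 6 compound arrays lay between 5.79 and 6.52, below every other array (normoxia: 8.76, 9.13 and 9.03), and the change was -2.27 ± 0.11. ITGB4, its partner in hemidesmosomes, measured 11.40, 11.71 and 11.44 in the vehicle arrays, 11.60, 11.54 and 11.79 with BB2-282, 9.73, 9.91 and 9.93 with BB2-125 and 9.70, 9.08 and 9.38 with BB2-162, a change of -1.96 ± 0.10. ITGA2, a collagen receptor chain gene, changed by -1.92 ± 0.11 and LAMB3, a laminin-332 chain gene, by -1.12 ± 0.08. TNS4, a gene of the tensin family, measured 9.79, 10.29 and 9.73 in the vehicle arrays, 9.45, 9.54 and 9.79 with BB2-282, 7.60, 7.30 and 7.43 with BB2-125 and 7.75, 7.87 and 7.82 with BB2-162. Its change was -2.14 ± 0.10. DOCK5, an activator of the small GTPase Rac, measured 9.57, 9.84 and 9.48 in the vehicle arrays, 9.30, 9.52 and 9.83 with BB2-282, 7.34, 7.66 and 7.32 with BB2-125 and 7.42, 6.94 and 7.21 with BB2-162, a change of -2.27 ± 0.12, and its compound arrays also lay below the normoxic ones (9.15, 9.54 and 9.68).

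Genes of the TGF-beta response and of the epithelial-mesenchymal transition were mostly lower. Of 24 tested, 15 were common falls and 3 common rises, against 18.3% and 15.7% of all genes, and 11 of the falls were strictly common. Their median was -0.51. PMEPA1 encodes a membrane protein that TGF-beta induces and that restrains its signalling. In hypoxia PMEPA1 stood at 10.44, 10.64 and 10.59 in the vehicle arrays, 11.31, 11.44 and 11.44 with BB2-282, 8.22, 8.24 and 8.13 with BB2-125 and 9.04, 9.05 and 9.20 with BB2-162. BB2-282 lay above the vehicle, both compounds lay below it, BB2-125 by more, and the change was -2.33 ± 0.08. THBS1 encodes thrombospondin 1, a matrix protein that can activate TGF-beta. The 12 hypoxic arrays gave THBS1 levels of 8.71, 8.96 and 8.89 in the vehicle arrays, 9.52, 9.78 and 9.78 with BB2-282, 7.19, 7.34 and 7.28 with BB2-125 and 7.10, 6.54 and 6.86 with BB2-162. Its compound arrays were below all reference arrays, which were below the normoxic arrays (10.14, 10.53 and 10.43); the change was -2.22 ± 0.10. TGFBR1, a receptor gene of the pathway, changed by -1.94 ± 0.08 and SMAD6, an inhibitor of related signals, by -1.19 ± 0.07. The members that fell thus include both activators and inhibitors of the pathway. The 3 rises were the transcription factor genes TWIST1 (0.46) and SNAI1 (0.34) and the epithelial adhesion gene EPCAM (0.30), named after their values were seen.

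Of 15 genes that modify collagen, 6 were common falls and 1 was a common rise (SERPINH1, a collagen chaperone gene, 0.39, named after its value was seen, not common after median centring or without BB2-162 replicate 1), and 5 of the falls were strictly common. Among all genes 18.3% were common falls and 15.7% common rises. The median change was -0.23. LOX had the second largest fall of all common genes without overlap. The hypoxic levels of LOX were 7.68, 7.995 and 7.14 in the vehicle arrays, 9.36, 9.33 and 9.40 with BB2-282, 5.98, 5.73 and 5.99 with BB2-125 and 5.44, 5.60 and 5.59 with BB2-162. The BB2-282 arrays were above the vehicle arrays by 1.76 (limma adjusted p = 1.01e-06) and the compound arrays were below both, yet above the normoxic arrays (4.82, 4.75 and 4.53), which lay at about the level treated as dim (4.73). The change was -2.76 ± 0.11, or 6.78-fold lower. Against the vehicle alone LOX changed by -1.88 ± 0.13 and against BB2-282 alone by -3.64 ± 0.13. The promoter of LOX is printed because of the size of its fall. It holds 4 copies of ACGTG, the core letters of a hypoxia response element. They start 185, 116, 98 and 42 bases before the start, the one at 116 on the opposite strand, in the 250 bases at chr5:122078260-122078509, minus strand, and capitals also mark CCAAT 109 bases before it.
LOX: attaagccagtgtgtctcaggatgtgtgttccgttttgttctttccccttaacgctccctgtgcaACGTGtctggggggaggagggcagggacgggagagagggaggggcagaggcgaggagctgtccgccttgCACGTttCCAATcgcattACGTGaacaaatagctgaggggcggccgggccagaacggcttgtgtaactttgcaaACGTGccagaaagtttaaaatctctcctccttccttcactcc

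LOXL2, a relative of LOX, changed by -1.28 ± 0.08, and the lysyl hydroxylase genes PLOD2 and PLOD3 by -1.35 ± 0.09 and -0.83 ± 0.08. Of 18 collagen chain genes, 5 were common falls, none strictly common, beside the same 18.3%. TRAM2, whose product takes part in collagen synthesis in the endoplasmic reticulum, measured 10.92, 11.37 and 11.02 in the vehicle arrays, 10.72, 10.74 and 11.08 with BB2-282, 8.58, 8.77 and 8.59 with BB2-125 and 9.36, 8.85 and 9.21 with BB2-162, a change of -2.08 ± 0.11.

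The machinery of HIF moved in opposite directions at the transcript level. HIF1A was a common rise. HIF1A was measured at 9.58, 9.92 and 9.40 in the vehicle arrays, 9.54, 9.50 and 9.63 with BB2-282, 10.18, 10.38 and 10.21 with BB2-125 and 11.33, 10.71 and 10.70 with BB2-162. Its compound arrays lay above all references and below the normoxic arrays (11.59, 11.80 and 11.83), with a change of 0.99 ± 0.11. EPAS1 was a common fall of -0.74 ± 0.09. In hypoxia EPAS1 stood at 12.19, 12.43 and 12.34 in the vehicle arrays, 12.20, 12.19 and 12.31 with BB2-282, 11.09, 11.41 and 11.23 with BB2-125 and 12.06, 11.56 and 11.84 with BB2-162. The compound arrays of EPAS1 lay below all reference arrays, BB2-125 by more. ARNT changed by -0.23 ± 0.08 (adjusted p = 0.0183), its arrays overlapped, and the call ended without BB2-162 replicate 2 (limma adjusted p = 0.0521). Without BB2-162 replicate 1 the ARNT value was -0.30. EGLN3 fell without overlap. The 12 hypoxic arrays gave EGLN3 levels of 10.43, 10.71 and 10.24 in the vehicle arrays, 9.36, 9.29 and 9.41 with BB2-282, 8.11, 8.38 and 8.45 with BB2-125 and 8.12, 7.90 and 8.18 with BB2-162. BB2-282 was itself lower than the vehicle by 1.11 on the log2 scale for EGLN3, and both compounds were lower again, at about the normoxic level (8.16, 8.23 and 8.23); the change was -1.71 ± 0.09. Of 9 genes of HIF subunits and oxygen sensors, HIF1A was the only common rise and 4 were common falls, beside 15.7% and 18.3% of all genes.

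Several coactivator genes of HIF were lower with both compounds. Of 7 tested, 4 were common falls, all strictly common, beside 18.3% common and 5.79% strictly common falls over all genes, and none was a common rise. Their median was -0.85. EP300 measured 8.44, 8.94 and 8.59 in the vehicle arrays, 8.83, 8.998 and 9.12 with BB2-282, 7.48, 7.97 and 7.61 with BB2-125 and 8.24, 7.53 and 7.98 with BB2-162, a change of -1.02 ± 0.13. CREBBP measured 9.40, 9.79 and 9.65 in the vehicle arrays, 9.76, 10.002 and 9.88 with BB2-282, 8.33, 8.65 and 8.44 with BB2-125 and 8.85, 8.09 and 8.64 with BB2-162, a change of -1.25 ± 0.12. Neither gene had a compound array that overlapped the references, and BB2-162 replicate 1 was the compound array closest to them in both. Without that array EP300 changed by -1.10 and CREBBP by -1.33. KAT2B, which encodes another histone acetyltransferase, changed by -1.32 ± 0.11 and NCOA1, a nuclear receptor coactivator gene, by -0.85 ± 0.14. CITED2 did not meet the rule: it measured 10.22, 10.59 and 10.39 in the vehicle arrays, 10.26, 10.28 and 10.23 with BB2-282, 10.05, 10.28 and 10.03 with BB2-125 and 11.30, 10.98 and 11.10 with BB2-162. Its BB2-162 arrays lay above the references and its BB2-125 mean lay below them.

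Of 31 HIF targets in signalling and survival, 12 were common falls and 9 common rises, beside 18.3% and 15.7% of all genes; the median change was -0.19. The falls of lowest p were TGFA and EGLN3, given above, and CA12 (-0.82 ± 0.09), which encodes a carbonic anhydrase at the cell surface; ANKRD37 was the rise of lowest p (0.88 ± 0.09). VEGFA changed by -0.53 ± 0.08. The hypoxic levels of VEGFA were 11.28, 11.54 and 11.43 in the vehicle arrays, 11.52, 11.57 and 11.55 with BB2-282, 10.44, 10.59 and 10.59 with BB2-125 and 11.52, 11.13 and 11.43 with BB2-162. The BB2-125 arrays lay below every reference array, whereas the BB2-162 arrays overlapped them, so VEGFA met the common rule by a margin of -0.06 in its BB2-162 mean and was not strictly common. CXCR4 did not meet the rule: it measured 8.91, 8.76 and 9.05 in the vehicle arrays, 9.16, 9.08 and 9.10 with BB2-282, 8.06, 8.16 and 7.64 with BB2-125 and 9.06, 8.91 and 9.16 with BB2-162. Its BB2-162 mean lay between the means of the references. SLC2A1 changed by -0.34 ± 0.08 and was not strictly common; the highest BB2-162 array lay among the references.

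**Figure D3:**
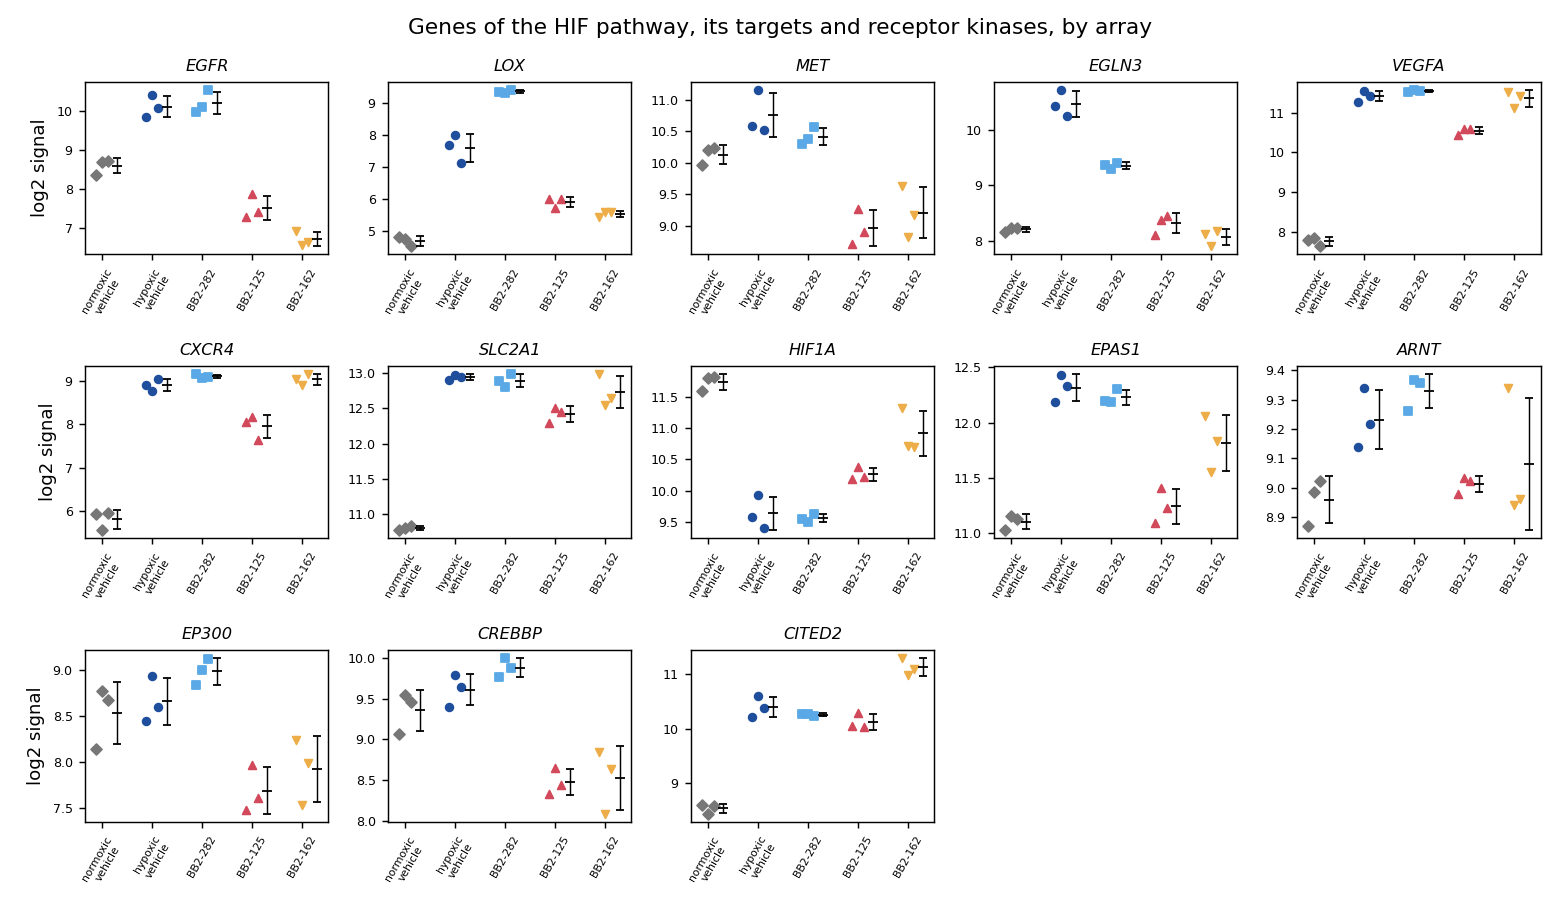
Log2 signal (vertical axis, own scale in each panel) of 13 genes of the HIF pathway, its targets and receptor kinases in the 5 groups (horizontal axis); points are arrays in the order of their replicate numbers, and the bar to their right is the group mean with its SD, n = 3. EGFR, MET, LOX, EGLN3, EP300 and CREBBP lie lower in both compound groups than in both references, whereas CXCR4 lies lower with BB2-125 and CITED2 higher with BB2-162.

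Of 23 genes of glucose uptake and glycolysis, 11 were common falls and 2 common rises, and 3 of the falls were strictly common (18.3% and 15.7% of all genes were common falls and rises). Their median was -0.22. A list of housekeeping genes had a median of -0.18, with 4 common falls and 2 common rises among 11 tested. PFKP, a phosphofructokinase gene, changed by -1.14 ± 0.11 and GYS1, which encodes glycogen synthase, by -1.06 ± 0.10. GBE1, which encodes the glycogen branching enzyme, changed by -0.77 ± 0.10. PYGL encodes the liver form of glycogen phosphorylase, which breaks glycogen down. PYGL was measured at 11.17, 11.47 and 11.13 in the vehicle arrays, 11.78, 11.77 and 11.81 with BB2-282, 9.84, 9.84 and 9.83 with BB2-125 and 9.51, 9.09 and 9.23 with BB2-162. The BB2-162 arrays were the lowest and the BB2-125 arrays came next (change -1.97 ± 0.08), and both stayed above the normoxic arrays (8.72, 8.84 and 8.76).

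Chromatin and elongation regulators held 13 common falls and 1 common rise among 28 tested, against 18.3% and 15.7% of all genes, with 5 falls strictly common and a median change of -0.22. BRD10, which encodes a bromodomain protein, measured 7.71, 8.28 and 7.47 in the vehicle arrays, 7.44, 7.80 and 8.13 with BB2-282, 5.71, 5.77 and 5.22 with BB2-125 and 6.17, 4.85 and 5.64 with BB2-162. Its arrays spread widely within each group, but the highest compound array lay below the lowest reference array (change -2.24 ± 0.21). CHD9, a chromatin remodeller gene, changed by -1.73 ± 0.12 and ATRX, another one, by -1.08 ± 0.12. The rise was CDK7 (0.60 ± 0.08), which encodes the kinase of the general transcription factor TFIIH.

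The remaining large falls were F3, UACA, ABTB3 and RASD2. F3 encodes tissue factor, which starts blood clotting. In hypoxia F3 stood at 9.43, 10.02 and 9.67 in the vehicle arrays, 10.10, 10.29 and 10.21 with BB2-282, 7.31, 7.57 and 7.69 with BB2-125 and 8.44, 8.38 and 8.51 with BB2-162. The BB2-125 arrays were the lowest, the BB2-162 arrays lay between them and the references, and normoxia was lower than all (6.51, 6.44 and 6.54); the change was -1.97 ± 0.09. UACA changed by -2.14 ± 0.09, ABTB3 by -2.23 ± 0.09 and RASD2, which encodes a Ras-like GTPase, by -1.98 ± 0.12.

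**Figure D4:**
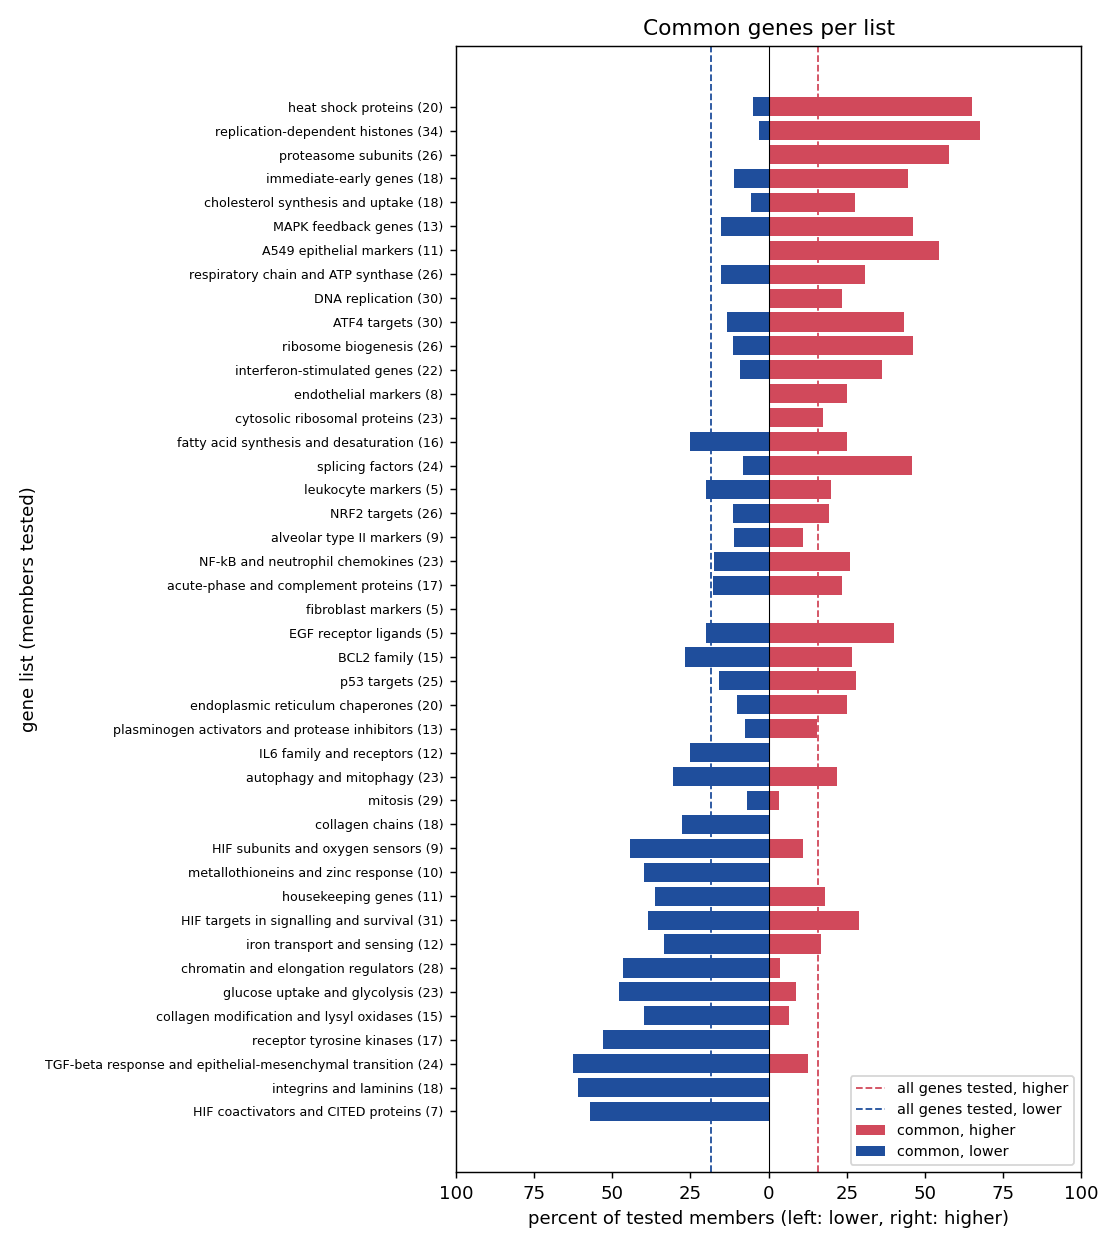
Share of the tested members of each of the 43 gene lists that were common rises (right of 0) or common falls (left of 0), in percent (horizontal axis), with the number of tested members beside each name (vertical axis), ordered by the median change. Dashed lines mark the shares over all genes tested, 15.7% higher and 18.3% lower; the heat shock, histone and proteasome lists have the highest medians, and the HIF coactivator and integrin lists the lowest.

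The shares of all genes to set beside the following lists are 15.7% common rises and 18.3% common falls. ATF4 targets held 13 common rises, led by NUPR1 (1.44 ± 0.08) and the amino acid transporter gene SLC3A2 (0.998 ± 0.09), and 4 common falls, among them the transporter genes SLC7A1 (-0.96 ± 0.08) and SLC38A2 (-1.10 ± 0.09), of 30 tested. NRF2 targets held 5 common rises, led by NQO1 (0.98 ± 0.08), which encodes a quinone reductase, and 3 common falls of 26, both near those shares. Of 25 p53 targets 7 were common rises, led by the BCL2 family gene PMAIP1 (1.08 ± 0.08), and 4 common falls, led by the DNA repair gene DDB2 (-1.26 ± 0.07). Of 26 genes of the respiratory chain and ATP synthase 8 were common rises, led by the cytochrome c gene CYCS (1.64 ± 0.07), and 4 common falls. The median of that list was -0.16 for BB2-162 against the vehicle and 0.15 against BB2-282, and BB2-282 lay at -0.30 against the vehicle.

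Cholesterol genes held 5 common rises and 1 common fall of 18, none strictly common, with 15.7% and 18.3% over all genes. DHCR7, which encodes the last enzyme of 1 branch of the pathway, changed by 1.13 ± 0.08, and the median of the list was 0.54 for BB2-125 and 0.15 for BB2-162 against the vehicle. Interferon-stimulated genes held 8 common rises and 2 common falls of 22, none of the rises strictly common, and the rises numbered 5 after median centring. Metallothionein and zinc genes, whose copies are very similar, held 4 common falls of 10, led by MT1X (-0.84 ± 0.10). In iron transport STEAP3, an iron reductase gene, was a common fall of -1.73 ± 0.07. Fatty acid, autophagy, BCL2 family, acute-phase, endoplasmic reticulum chaperone and protease inhibitor genes had common members in both directions. The median of the chaperone list, 0.02, turned to -0.02 after median centring. In all, 360 of the 768 list genes tested were common, 201 higher and 159 lower, beside 34% of all genes.

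Under quantile normalization, median centring or without BB2-162 replicate 1, the medians of the heat shock, histone, proteasome, immediate-early, integrin, TGF-beta, receptor kinase, coactivator, chromatin, glycolysis and collagen modification lists kept their sign. The count of common proteasome rises ran from 11 to 19 over these settings, that of heat shock rises from 12 to 14 and that of histone rises from 20 to 23. The count of common integrin and laminin falls ran from 11 to 13.

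The cells were checked against markers. Of 11 A549 epithelial markers tested, 10 lay above the array median, and 6 were common rises, beside 15.7% of all genes: NQO1, AKR1B10, ALDH1A1, KRT8, KRT18 and EPCAM. That count was 4 after median centring or without BB2-162 replicate 1. Their mean level ran from 10.02 to 10.33 in the reference arrays and from 10.06 to 10.74 in the compound arrays, and its part in the rises was not tested. By group this mean level was 10.27 with the vehicle, 10.06 with BB2-282, 10.72 with BB2-125 and 10.23 with BB2-162. The other markers of the list were not called. KRT7 (-0.14), KRT19 (-0.18) and CDH1 (-0.24) had negative changes, and AKR1C1 (0.10) and AKR1C2 (0.11) positive ones. None of 5 fibroblast markers was common. Of 5 leukocyte markers CD68 was a common fall (-0.30 ± 0.06) and CD3E a common rise (0.32 ± 0.08), and PTPRC and LYZ did not pass the filter on dim genes. Of 8 endothelial markers TEK and KDR were common rises of 0.24 ± 0.08 and 0.20 ± 0.08, near the dim level, whose calls ended after quantile normalization. Of 9 alveolar type II markers the lipid transporter gene ABCA3 was a common fall (-1.18 ± 0.08) and ETV5 a common rise (0.33 ± 0.09). The median change of the 9 was 0.11. In bulk RNA, fewer cells of a type and less RNA per cell cannot be told apart. A change shared by all transcripts would also not show, since the arrays were normalized to one another.

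The compounds were also compared with each other at the same dose and time, in 3 pairs, with p-values adjusted over all genes and pairs together. BB2-125 and BB2-162 differed in 4467 genes (27.9%), 2777 higher with BB2-125 and 1690 lower; after median centring these were 3095 and 1137. The lower count was 2775 without BB2-162 replicate 1, 1034 without BB2-125 replicate 1 and 1052 without BB2-162 replicate 3. BB2-125 differed from BB2-282 in 5727 genes (35.8%), and BB2-162 differed from BB2-282 in 5607 (35%), 2399 higher and 3208 lower, or 1688 and 3507 after centring. Among the common rises 685 (27.3%) also differed between BB2-125 and BB2-162, with BB2-125 the larger in 445 and BB2-162 in 240. Among the common falls 850 (29%) differed, with BB2-125 the larger in 383 and BB2-162 in 467. These shares are close to the 27.9% of all genes, and the common rule itself asks for 1 direction. Of the largest 15 rises 11 differed between the compounds, 4 with the larger value in BB2-125 and 7 in BB2-162, and of the largest 15 falls 8 differed, 4 in each direction.

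The genes that differed most while still common were NR4A2, IDH1, ABCG2, TNS1 and P3H2, which were selected for that difference. NR4A2 was lower with BB2-125 than with BB2-162 by -2.08 ± 0.17 on the log2 scale. IDH1, a cytosolic isocitrate dehydrogenase gene, measured 7.97, 7.96 and 7.82 in the vehicle arrays, 7.96, 7.57 and 8.01 with BB2-282, 10.24, 10.47 and 10.28 with BB2-125 and 8.84, 8.42 and 8.24 with BB2-162. BB2-125 had the larger rise, by 1.83 ± 0.14. ABCG2, a drug efflux transporter gene, measured 5.58, 5.42 and 5.40 in the vehicle arrays, 5.16, 5.58 and 5.51 with BB2-282, 7.30, 7.15 and 7.12 with BB2-125 and 5.69, 5.59 and 5.47 with BB2-162; the BB2-162 arrays overlapped the references, and the difference was 1.61 ± 0.12. TNS1, a tensin gene, fell more with BB2-125 (-1.56 ± 0.12), and P3H2, a prolyl hydroxylase gene for collagen, more with BB2-162 (1.53 ± 0.20), its BB2-125 arrays overlapping the references.

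For other members no difference between BB2-125 and BB2-162 passed the test. The difference in ITGA6 was -0.08 ± 0.16, with a 95% interval from -0.41 to 0.25. For BRD10 the interval ran from -0.60 to 0.62, for DOCK5 from -0.09 to 0.59, for CREBBP from -0.40 to 0.30 and for MET from -0.65 to 0.16. For SNORD75 it ran from -0.09 to 0.60 and for PDK4 from -0.05 to 0.56. These intervals leave room for differences of the sizes given, so the compounds are not shown to act alike on these genes. Against the vehicle BB2-125 had 4539 called genes (28.4%) and BB2-162 had 5780 (36.1%). In 169 genes (1.06%) these calls had opposite directions and the difference between BB2-125 and BB2-162 passed its own test.

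The references were not alike. BB2-282 differed from the hypoxic vehicle in 2176 genes (13.6%), 905 higher (5.65%) and 1271 lower (7.94%). That count fell to 1222 without hypoxic vehicle replicate 1, to 1352 without replicate 2 and to 1258 without BB2-282 replicate 2, and rose to 4193 with array weights. The higher count alone was 579 without BB2-282 replicate 3, and the lower count alone 816 without BB2-282 replicate 1. Among the common rises BB2-282 was called higher than the vehicle in 49 and lower in 269, and among the common falls it was called lower in 130 and higher in 369. The rule uses both references, so these counts describe where they lay. Against the vehicle alone the 2 compounds together differed in 5129 genes (32%) and against BB2-282 alone in 6025 (37.6%). Of the 175 genes named by rule, 159 kept their direction and their call against the vehicle alone and 168 against BB2-282 alone, a choice of reference made after seeing the data. ARNT, CITED2, PCNA, TFRC, RPL30 and RPL7 were among the 16 that missed the call against the vehicle alone.

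Normoxic arrays did not enter the rule. BB2-125 and BB2-162 together differed from the normoxic vehicle in 12133 genes (75.8%), 6662 higher (41.6%) and 5471 lower (34.2%). Of the 15 largest rises, both compounds lay above normoxia in 9, 1 compound did in 1 and neither did in 5. Of the 15 largest falls, both compounds lay below normoxia in 10 and neither did in 5, LOX, UACA, RASD2, F3 and PYGL. Over all genes, the change of both compounds from BB2-282 had a correlation of -0.213 with the change of the vehicle from normoxia, and the change of both compounds from the vehicle had one of -0.081 with the change of BB2-282 from normoxia. These pairs share no array, the 16005 genes are not independent replicates, and the values describe only a weak relation.

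The agreement of the compounds was set out in comparisons that share no array. The change of BB2-125 from the vehicle and that of BB2-162 from BB2-282 had a Pearson correlation of 0.566 and a Spearman correlation of 0.511 over 16005 genes. With the references exchanged these were 0.4 and 0.291. Genes are not independent replicates, all arrays were normalized together, and no p is given.

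**Figure D5:**
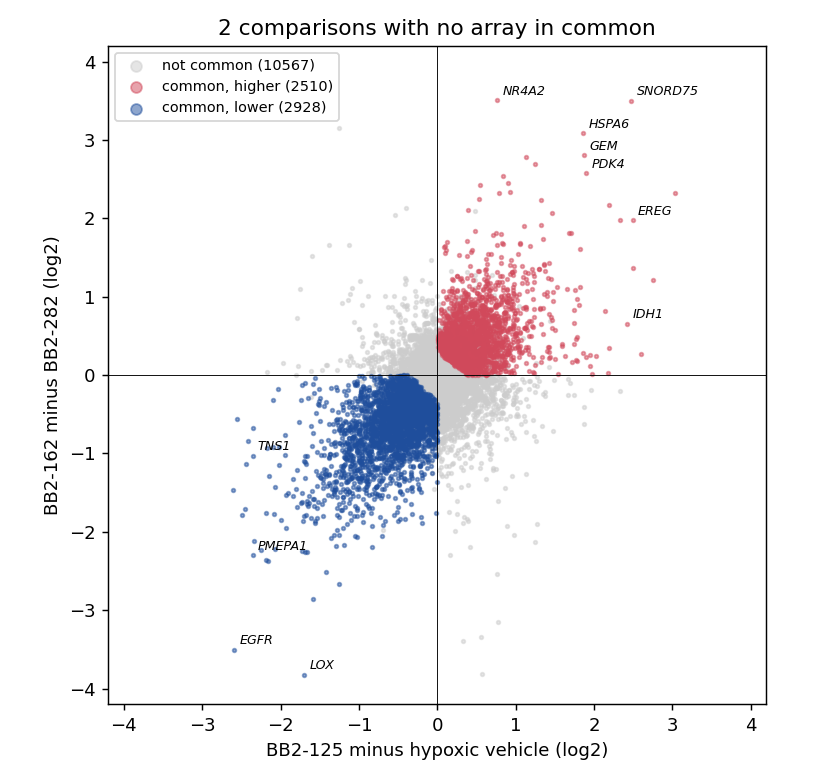
Change of BB2-125 from the hypoxic vehicle (horizontal axis, log2) against change of BB2-162 from BB2-282 (vertical axis, log2), which have no array in common; each point is 1 of 16005 genes, with the 2510 common rises and 2928 common falls coloured. The common genes lie to the upper right and lower left by the rule, with EGFR and LOX at the lower left and SNORD75 and HSPA6 at the upper right.

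Promoters were available for 12502 of the 16005 genes tested, for 1987 of the 2510 common rises and for 2415 of the 2928 common falls. Motifs were sought on both strands in the 250 bases before the start, and none of the 5 motifs holds another in its letters. ACGTG, the hypoxia response core, was present in 21.9% of all these promoters, 24% of those of common rises and 23.6% of those of common falls. GAANNTTC was present in 4.26%, 4.58% and 3.19%, TGACGTCA, the cAMP response element, in 2.55%, 3.72% and 2.44%, TGANTCA in 4.42%, 3.72% and 3.93%, and CCAAT in 34.0%, 38.8% and 31.0%. The median GC content was 64.0% over all promoters, 62.4% for the rises and 68.0% for the falls. A match is a run of letters and was not tested as a binding site.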

How the data were processed

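RNA of 15 cultures was hybridised to whole-transcript microarrays, 3 arrays in each of 5 groups. The deposited intensity values were made with RMA, per the submitters' processing notes; its software, version and genome build are not given in the sources used here. They are linear, with array medians from 74.91 to 84.6, and their log2 was used. RMA scales arrays to one another. No 2 arrays held identical values.

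Of 28869 probe sets, 19310 had 1 gene symbol in the platform annotation, 1752 several and 7807 none; symbols were updated by gene identifier for 19279. Each of 18377 genes took its brightest probe set, and 16005 genes above the 25th percentile of an array on at least 3 arrays were tested. limma 3.58.1 in R 4.3.3 fitted the 5 group means with moderated variances, and Benjamini-Hochberg adjustment ran over all genes. The number of arrays limits the precision. The fit was tested on simulated data. Genes of RefSeq promoters (GRCh38.p14) were matched by symbol, with Python 3.11.15 and pandas 2.3.3.

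The members and the gene lists were chosen with earlier results of these data known. Genes were named by rule: the 15 largest common rises and falls without overlap and above the dim level, up to 4 members of lowest p of each list, 13 genes of the HIF pathway and receptor kinases, and the 5 common genes that differed most between the compounds. Other normalizations, filters, probe set rules, variance models, thresholds, array weights, a replicate block and single-array omissions were tried. Same-numbered arrays of 2 groups deviated together, with every correlation over 0.1, in 1 of 10 pairs of groups (range -0.429 to 0.58), so the numbers were not taken as pairs.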

Additional observations from a re-analysis of the deposited data

Results flagged for a closer look

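Probe sets with no gene symbol or several symbols were outside the gene comparisons. Of 5691 of them that passed the filter on dim signals, 1684 (29.6%) met the common rule, 1230 as higher and 454 as lower with BB2-125 and BB2-162, beside 34% of the named genes. This signal lies in data the comparisons above did not use, and it was not assigned to single genes here.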

How the results depend on the processing

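Of 4196 values recomputed for the 175 named genes with both references kept, 4160 kept their direction and their side of the threshold, 35 kept only their direction and 1 reversed: NRG1 was -0.35 as the mean of its probe sets. The calls that were lost were those of TIMP1, TEK, KDR, RPL7 and ARNT. The common genes numbered 482 at a change of at least 1, a stricter threshold by construction, and 2397 where arrays may not overlap. With array weights BB2-282 differed from the vehicle in 4193 genes; the cause was not tested. With 1 array left out, the pooled comparison called between 5920 and 7807 genes, the common genes ran from 4877 to 6056 and the strictly common ones from 1043 to 1424. The differences of BB2-125 from BB2-162 ran from 3124 to 6297, those from BB2-282 from 4887 to 6376 for BB2-125 and from 4460 to 6915 for BB2-162, and those of BB2-282 from the vehicle from 1222 to 2767. The comparison with normoxia ran from 10673 to 12655 and the common list members from 344 to 381. With the replicate number as a replicate block, 6550 genes were called, 5347 were common and 1216 strictly common. The other totals of called genes stayed within 1.5 times the reported ones under the alternatives run, while their split by direction and the counts of single lists moved more in places, as given beside them for some lists. Signal near the dim level limits genes such as TEK and KDR.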
